A study of Mus musculus with 24 samples.

Results

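The transcripts described here are those of the mouse mitochondrial genome in C2C12 myotubes. They were taken as every gene of the deposited table whose symbol starts with mt-, and these were 37 of the 55487 genes listed. They comprised 13 protein-coding genes, 2 rRNAs and 22 tRNAs. The 13 are called mRNAs here, 1 per gene, although genes that overlap on 1 strand need not give separate RNAs. C2C12 is an immortalised mouse skeletal muscle line of labelled wild-type genotype, so all cultures shared the background of 1 line. The myotubes had been formed from myoblasts in 5 % O2, and the cultures were labelled as day 5. They were then kept for 2 h under 5 % or 1 % O2 and either left without stimulation (5 % CTRL, 1 % CTRL) or contracted by electrical pulses (5 % STIM, 1 % STIM), with 6 cultures in each of the 4 groups.

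The mitochondrial genome is a small circular DNA that encodes a few core subunits of the respiratory chain and of the ATP synthase, together with the rRNAs and tRNAs needed to translate them inside the organelle. Both strands are transcribed as long precursors. The heavy-strand precursor carries both rRNAs and nearly all of the mRNAs, whereas mt-Nd6 is the sole mRNA on the light-strand precursor. Most mRNAs are separated by tRNAs, and excision of the tRNAs releases the mRNAs. Neighbouring genes therefore start from 1 precursor, and the level of each also depends on cleavage, on the poly(A) tail and on decay. The polymerase, the processing enzymes and the other factors for these steps are encoded in the nucleus. Muscle is rich in mitochondria and in these transcripts.

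Sequence decided which of these genes could be read in the deposited values. A block of chromosome 1 holds copies of mitochondrial genes, annotated as unprocessed pseudogenes on the minus strand between chr1:24611535-24616197 (GRCm38, GENCODE M21). Of the 7 copies, 5 had neither a mismatch nor a gap over their whole length. The 3′ end of mt-Co2 and that of its copy Gm28661 show how little separates them. The capitals mark the 3 bases that the model of the copy lacks.
mt-Co2 (chrM:7637-7696, plus strand): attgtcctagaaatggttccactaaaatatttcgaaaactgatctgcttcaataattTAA
Gm28661 (chr1:24614885-24614941, minus strand): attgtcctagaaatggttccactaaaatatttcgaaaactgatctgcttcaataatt

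mt-Nd3 and its copy Gm28438 differed in their 345 shared bases by 1 substitution, T3C, counted from the first base of the gene with the mitochondrial base first. It is in capitals in the first 60 bases of both.
mt-Nd3 (chrM:9459-9518, plus strand): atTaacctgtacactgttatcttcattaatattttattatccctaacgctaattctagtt
Gm28438 (chr1:24613060-24613119, minus strand): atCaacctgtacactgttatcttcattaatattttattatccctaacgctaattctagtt

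Genes of the mitochondrial DNA also share bases with each other. mt-Nd4l and mt-Nd4 overlap by 7 bases on the same strand. The counts of such overlapping genes need not come from separate RNAs, and this was not tested. mt-Atp8 and mt-Atp6 overlap by 43 bases on the same strand, in capitals below, so a read there belongs to both.
mt-Atp8 (chrM:7910-7969, plus strand): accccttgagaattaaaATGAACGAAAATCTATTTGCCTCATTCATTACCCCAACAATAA
mt-Atp6 (chrM:7927-7986, plus strand): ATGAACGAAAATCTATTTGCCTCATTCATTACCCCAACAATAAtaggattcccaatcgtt

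The ends of mt-Nd5 and mt-Nd6 meet on opposite strands and share 14 base pairs, in capitals in each gene's own direction. The libraries kept the strand of the RNA but the stated counting did not use it, so reads of mt-Nd6 and of the antisense strand across it cannot be told apart.
mt-Nd5 (chrM:13526-13565, plus strand): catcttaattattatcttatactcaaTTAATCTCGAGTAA
mt-Nd6 (chrM:13552-13591, minus strand): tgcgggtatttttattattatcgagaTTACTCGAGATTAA

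The tRNAs that lie between neighbours compared below are mt-Tv, between mt-Rnr1 and mt-Rnr2, mt-Tl1, between mt-Rnr2 and mt-Nd1, and mt-Te, between mt-Nd6 and mt-Cytb.
mt-Tv (chrM:1025-1093, plus strand): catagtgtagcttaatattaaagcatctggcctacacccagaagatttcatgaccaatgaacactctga
mt-Tl1 (chrM:2676-2750, plus strand): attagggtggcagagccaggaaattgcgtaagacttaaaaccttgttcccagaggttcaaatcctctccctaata
mt-Te (chrM:14071-14139, minus strand): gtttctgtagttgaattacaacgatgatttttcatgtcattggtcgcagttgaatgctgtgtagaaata

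The values are gene counts divided by a size factor of each library, called normalised counts here. Libraries held between 26541858 and 28173745 reads. Replicates of 1 group differed by more than counting noise. Myotube markers were strongly expressed in all 24 libraries, with Myh3, an embryonic myosin heavy chain, at a normalised count of at least 97211. Ptprc, the pan-leukocyte marker, reached at most 1.04. The 5 myoblast and cell cycle markers summed to between 3066 and 3490 in 5 % CTRL and between 3551 and 5560 in 1 % CTRL, while the 9 myotube markers summed to between 463085 and 510443 and between 405173 and 454401. With stimulation the sums were between 3416 and 3967 and between 419753 and 487910 at 5 % O2, and between 3842 and 4680 and between 403978 and 441630 at 1 % O2. Single markers did not move alike. In 1 % CTRL against 5 % CTRL, 3 of the 5 rose, 1 fell (Ccnb1) and 1 did not pass. Of the 9 myotube markers 5 fell and 4 did not pass. Of all genes tested, 30.5 % fell and 29.4 % rose. The 4 fibroblast markers summed to between 385 and 452 in 5 % CTRL and between 293 and 352 in 1 % CTRL. With stimulation they summed to between 414 and 516 at 5 % O2 and between 349 and 426 at 1 % O2. The part of these markers in the results was not tested, and in bulk RNA fewer myotubes cannot be told apart from less RNA per myotube. Replicate 1 of 1 % CTRL stood apart in how its values ran with gene length, with a slope of 0.0945. The calls and directions of members that changed without it are therefore given both ways. A higher slope means lower values of short genes relative to long ones. The next highest slopes were 0.0550 in replicate 3 of 1 % STIM and 0.0416 in replicate 5 of 5 % CTRL. In 5 % STIM the slopes lay between -0.0227 and -0.000688. Whether the slopes bore on the values of short genes was not tested.

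The 22 tRNAs were too low to judge. Each had 0 reads in each of the 24 libraries, which allows up to 3 reads of a tRNA in a library, or between 1.06e-05 % and 1.13e-05 % of its reads, by counting error alone. Their genes are 59 to 75 bases long, so a read at its sequenced length could not lie within one, and the libraries were selected for poly(A). Neither the 0 nor its limit therefore says how much of a tRNA was present. They are mt-Tf, mt-Tv, mt-Tl1, mt-Ti, mt-Tq, mt-Tm, mt-Tw, mt-Ta, mt-Tn, mt-Tc, mt-Ty, mt-Ts1, mt-Td, mt-Tk, mt-Tg, mt-Tr, mt-Th, mt-Ts2, mt-Tl2, mt-Te, mt-Tt and mt-Tp, named for the amino acid they carry. Of them, 14 lie on the heavy-strand precursor and 8 on the light-strand precursor. The other 15 members, 13 mRNAs and 2 rRNAs, passed the filter on low values, a normalised count of at least 10 in at least 6 libraries.

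Among these 15, the share of 75-base words found in annotated nuclear genes divided the members into those that could be read alone and those that could not. A word is shorter than a sequenced read, so this share is not the share of reads that fit both genes. The share of words was 0 % for mt-Rnr1, mt-Rnr2, mt-Nd1, mt-Atp8, mt-Nd6 and mt-Cytb. Sequence outside annotated genes was not searched, so a gene without a copy is here one without an annotated copy. mt-Atp8 lies between mt-Co2 and mt-Atp6, whose copies are neighbours in the block of chromosome 1. For mt-Atp8 the 0 % therefore does not exclude sequence shared with the stretch between those copies. The share was 5.71 % for mt-Nd2 and 1.66 % for mt-Nd5. It was 39.8 % for mt-Co1 and 61.5 % for mt-Nd4, and between 97.8 % and 99.9 % for mt-Co2, mt-Atp6, mt-Co3, mt-Nd3 and mt-Nd4l.

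In the deposited counts, the copies held most of the signal of several subunits. The mitochondrial gene received between 0.367 % and 6.19 % of the joint count of mt-Co2 and Gm28661 in the 24 libraries. For mt-Co3 and Gm28437 this share was between 0.00754 % and 7.47 %, and for mt-Atp6 and Gm10925 between 5.39 % and 17.0 %. The shares varied from library to library within groups, and mt-Nd3 was listed at 0 in 9 libraries although its sum with Gm28438 was never under 832. mt-Nd4l went the other way and took between 46.4 % and 100 % of its sum with Gm10222. mt-Nd4 held between 78.5 % and 87.2 % beside Gm28439, and mt-Co1 between 87.0 % and 92.8 % beside Gm29216. Between replicates the coefficient of variation of mt-Co2 was between 33.7 % and 62.9 % as deposited, and between 4.70 % and 7.56 % after the copy was added. For that reason the sum with the copy is given for these 7 genes beside the value as deposited. It was an alternative chosen after the data were seen, and it includes any RNA made from chromosome 1 itself, which cannot be told apart.

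**Figure D1:**
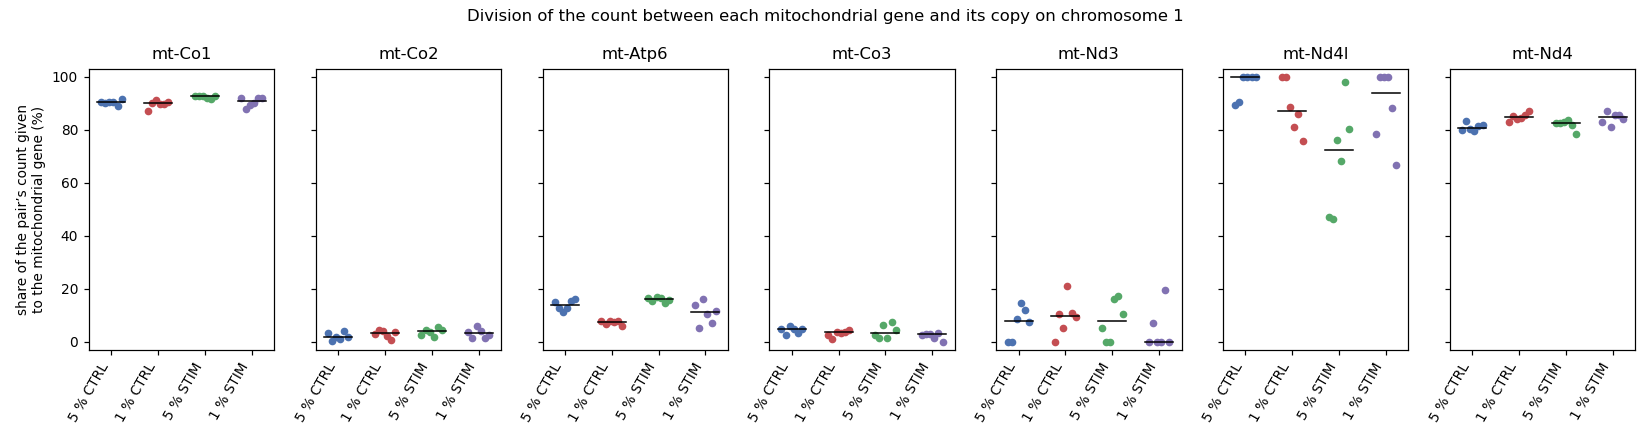
Share (%) of the joint normalised count of each mitochondrial gene and its chromosome 1 copy that was given to the mitochondrial gene, by group. Each point is 1 of the 24 libraries and the line is the median of 6. mt-Co2, mt-Co3 and mt-Nd3 lay low, with medians over the 24 libraries of 3.15 %, 3.21 % and 7.21 %, and mt-Nd4l ranged from 46.4 % to 100 %.

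The 13 mRNAs as deposited took between 2.14 % and 2.41 % of reads in 5 % CTRL and between 1.70 % and 1.92 % in 1 % CTRL, ranges that did not overlap. The shares were between 1.99 % and 2.35 % in 5 % STIM and between 1.70 % and 2.09 % in 1 % STIM. The 2 rRNAs took between 0.0510 % and 0.0903 % of a library. Since these libraries were selected for poly(A), the amount of an RNA and the share of it that carries a tail cannot be told apart. Per kilobase of gene length, mt-Co1 stood highest in each group, at 194436 ± 10464 normalised counts per kb (mean ± SD, n = 6) in 5 % CTRL with its copy added. mt-Co2 at 146540 ± 6891 and mt-Atp6 at 145720 ± 10495 per kb, also with their copies, followed and did not differ beyond their spread. mt-Nd1 stood at 82038 ± 2594, mt-Cytb at 56853 ± 3107 and mt-Nd6 at 34614 ± 2608 per kb. mt-Rnr2 at 10683 ± 609 and mt-Rnr1 at 7660 ± 379 per kb were below all of these, and mt-Nd3 with its copy was last in each group, at 4782 ± 409 per kb in 5 % CTRL. Full gene length was used, which sets short genes such as mt-Nd3 (348 bases) too low, because a read must fit within the gene.

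The rRNAs, which form the core of the mitochondrial ribosome, did not move alike. mt-Rnr2, the rRNA of the large subunit (chrM:1094-2675), had normalised counts of 15699 to 17865 with a median of 16972 in 5 % CTRL. It had 7719 to 8356 with a median of 8193 in 1 % CTRL. In 5 % STIM it had 14847 to 16740 (median 15831), and in 1 % STIM 9298 to 12505 (median 10793). The 1 % O2 groups did not overlap with the 5 % O2 groups, and the 6 libraries of 1 % STIM all lay above those of 1 % CTRL. mt-Rnr1, the rRNA of the small subunit (chrM:70-1024), had 6673 to 7654 (median 7351) in 5 % CTRL and 5951 to 6683 (median 6461) in 1 % CTRL. It had 5332 to 5910 (median 5640) in 5 % STIM and 5817 to 6814 (median 6464) in 1 % STIM. Its range in 5 % STIM lay wholly below that of both unstimulated groups.

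Among the complex I subunits, which belong to the NADH dehydrogenase that feeds electrons into the chain, mt-Nd1 and mt-Nd2 lie next along the heavy-strand precursor after the rRNAs. mt-Nd1 (chrM:2751-3707) had normalised counts of 73689 to 80405 (median 79171) in 5 % CTRL and 37674 to 44474 (median 40683) in 1 % CTRL. In 5 % STIM it had 58373 to 65580 (median 61103), and in 1 % STIM 38989 to 50007 (median 42278). mt-Nd2 (chrM:3914-4951) had 43286 to 48580 (median 47042) in 5 % CTRL and 22336 to 25194 (median 22888) in 1 % CTRL, and 37149 to 42359 (median 38995) and 23975 to 31296 (median 27042) in 5 % STIM and 1 % STIM. For both genes the libraries at 1 % O2 lay below those at 5 % O2 with or without stimulation.

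mt-Nd5, a further complex I subunit, lies far downstream (chrM:11742-13565). It had 63939 to 77552 (median 72699) in 5 % CTRL and 53127 to 59775 (median 56617) in 1 % CTRL. With stimulation it had 60646 to 71601 (median 67988) at 5 % O2 and 53421 to 68108 (median 56112) at 1 % O2. These stimulated groups overlapped, and the unstimulated ones did not. mt-Cytb, the subunit of complex III that the mitochondrial genome encodes (chrM:14145-15288), had 59294 to 68040 (median 66588) in 5 % CTRL and 46265 to 53938 (median 48847) in 1 % CTRL. It had 48375 to 57409 (median 54618) in 5 % STIM and 36516 to 44570 (median 39045) in 1 % STIM, where it was lower than in any library of the other groups.

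mt-Nd6, the complex I subunit of the light-strand precursor (chrM:13552-14070), had 16171 to 19845 (median 18135) in 5 % CTRL and 13122 to 15412 (median 13997) in 1 % CTRL. It had 14720 to 17456 (median 16681) in 5 % STIM and 12877 to 18344 (median 15255) in 1 % STIM. The unstimulated groups did not overlap, whereas 1 % STIM spanned the range of 5 % STIM.

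mt-Atp8, a small subunit of the ATP synthase (chrM:7766-7969), was the least stable of the members without an annotated copy. It had 1075 to 1652 (median 1270) in 5 % CTRL and 660 to 2638 (median 1693) in 1 % CTRL. With stimulation it had 1720 to 2054 (median 1897) at 5 % O2 and 798 to 1923 (median 1397) at 1 % O2. Its coefficient of variation between replicates reached 38.9 %, and replicate 1 of 1 % CTRL was its lowest library. Replicates 5 of 5 % CTRL and 3 of 1 % STIM, with the next highest slopes on gene length, were lowest in their groups.

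**Figure D2:**
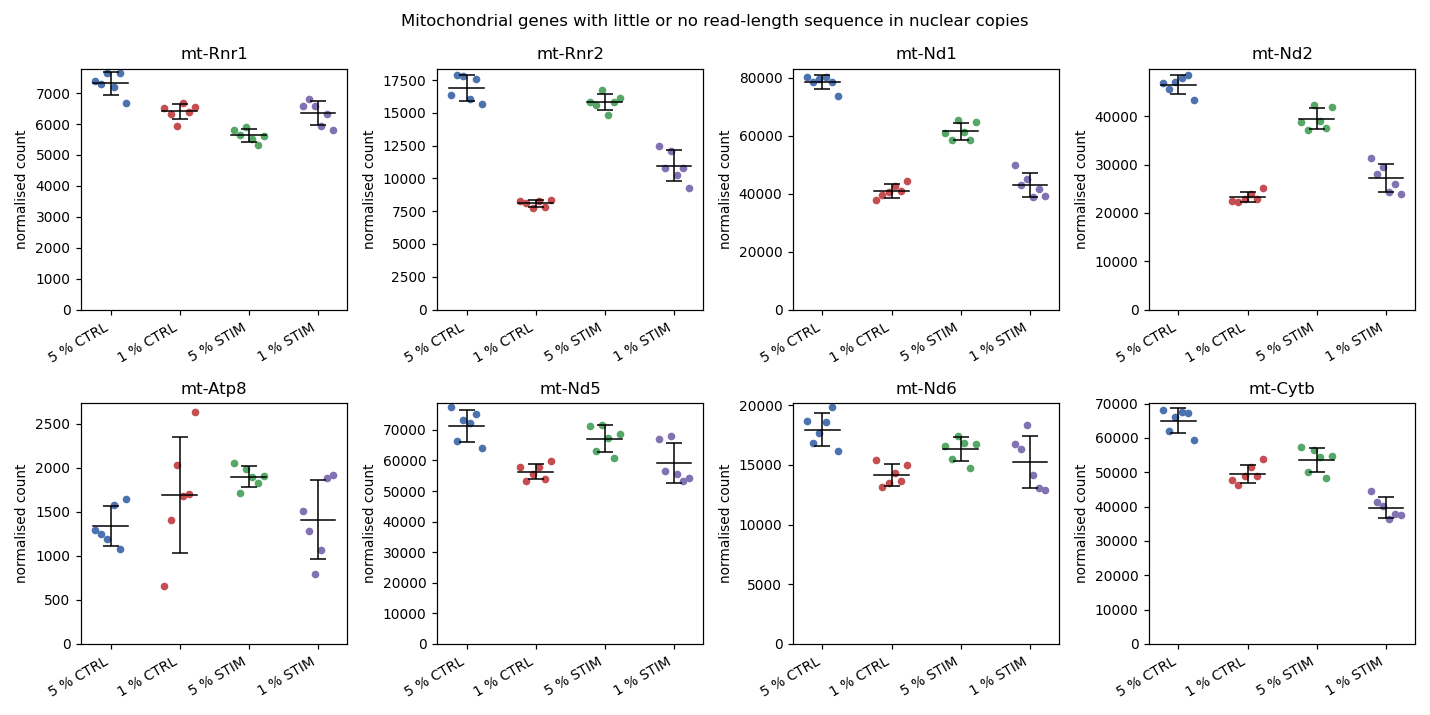
Normalised counts of the 8 mitochondrial genes with 5.71 % or less of their sequence words in annotated nuclear genes. Each point is 1 library, with the mean and SD of 6 per group, and the axes start at 0. mt-Rnr2, mt-Nd1 and mt-Nd2 were lower in both 1 % O2 groups than in both 5 % O2 groups, without overlap, while mt-Rnr1 was lowest in 5 % STIM.

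Of the genes with copies, the complex IV subunits were summed as follows. mt-Co1 with Gm29216 had normalised counts of 273225 to 315366 (median 307420) in 5 % CTRL and 236634 to 261713 (median 249519) in 1 % CTRL. It had 267981 to 315757 (median 296007) in 5 % STIM and 231243 to 277060 (median 246874) in 1 % STIM. mt-Co2 with Gm28661 had 93132 to 106292 (median 100528), 79482 to 99239 (median 90648), 79376 to 95266 (median 88422) and 67380 to 81414 (median 72315) in the same order. The unstimulated groups did not overlap in the sum of mt-Co1 and overlapped in that of mt-Co2, which was lowest in 1 % STIM by its median. mt-Co3 with Gm28437 likewise had 53213 to 59940 (median 53642) in 5 % CTRL and 47301 to 53116 (median 49646) in 1 % CTRL, and 43522 to 51652 (median 46216) and 38384 to 44478 (median 39584) in 5 % STIM and 1 % STIM. mt-Atp6, the proton channel subunit of the ATP synthase, had with Gm10925 88245 to 108481 (median 100602) in 5 % CTRL and 77362 to 86389 (median 79361) in 1 % CTRL. It had 66325 to 77903 (median 74714) in 5 % STIM and 55253 to 72741 (median 66133) in 1 % STIM.

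The remaining sums are those of complex I subunits. mt-Nd4 with Gm28439 had 76759 to 93057 (median 86762) in 5 % CTRL and 59181 to 70369 (median 62241) in 1 % CTRL, and 72156 to 84428 (median 78156) and 59403 to 78278 (median 64322) in 5 % STIM and 1 % STIM. mt-Nd3 with Gm28438 had 1531 to 1877 (median 1628), 928 to 1353 (median 1198), 1075 to 1312 (median 1250) and 832 to 1093 (median 945) in the same order of groups. mt-Nd4l with Gm10222 had 3315 to 4965 (median 3631) in 5 % CTRL and 1822 to 4901 (median 3950) in 1 % CTRL. With stimulation it had 5356 to 6113 (median 5784) at 5 % O2 and 2663 to 5083 (median 3975) at 1 % O2. The libraries of 5 % STIM thus lay above all others. The lowest in the other groups were replicate 5 of 5 % CTRL, 1 of 1 % CTRL and 3 of 1 % STIM. Each of these had the highest slope on gene length in its group.

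The first comparison asks what 2 h at 1 % O2 did to unstimulated myotubes. Mitochondrial transcripts were lower, and among the genes without a copy the falls were largest in those that follow mt-Rnr1 on the heavy-strand precursor. mt-Rnr2 fell by 1.06 on the log2 scale (SE 0.0516, limma adjusted p = 1.27e-15), mt-Nd2 by 1.00 (SE 0.0534, limma adjusted p = 1.86e-14) and mt-Nd1 by 0.94 (SE 0.0481, limma adjusted p = 1.30e-15), so that they stood at 0.480, 0.50 and 0.521 of their levels in 5 % CTRL. Falls were smaller for mt-Cytb (by 0.39, limma adjusted p = 1.05e-07), mt-Nd6 (by 0.34, limma adjusted p = 0.000568) and mt-Nd5 (by 0.34, limma adjusted p = 5.83e-05). mt-Rnr1 fell by 0.19 (limma adjusted p = 4.65e-05), with 1 library of each group inside the range of the other.

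As deposited, 8 of the 13 mRNAs fell and 0 rose, where 30.5 % of the 14541 genes tested fell, 29.4 % rose and 59.9 % changed in all. The median log2 fold change was -0.34 over the mRNAs and 0.00150 over all genes tested. The 8 were mt-Nd1, mt-Nd2, mt-Co1, mt-Atp6, mt-Nd4, mt-Nd5, mt-Nd6 and mt-Cytb. In each of them the groups did not overlap, against 19.9 % of all genes lower and 18.2 % higher without overlap. With the copies summed 11 of 13 fell, also where 30.5 % of the 14534 genes then tested fell, and the exceptions were mt-Atp8, at a log2 fold change of 0.23 (limma adjusted p = 0.442), and mt-Nd4l with its copy, at -0.15 (limma adjusted p = 0.529). For mt-Atp6 the value as deposited fell by 1.22 and the sum by 0.30, while the share of the sum given to mt-Atp6 had a median of 14 % in 5 % CTRL and 7.62 % in 1 % CTRL. Among the other sums, mt-Nd3 fell by 0.51, mt-Nd4 by 0.45 and mt-Co1 by 0.27, and mt-Co2 and mt-Co3 by 0.14 and 0.13. The call for the sum of mt-Co2 was lost without replicate 4 of 5 % CTRL or replicate 1 of 1 % CTRL, with an adjusted p of up to 0.0671. Without replicate 1 of 1 % CTRL, mt-Atp8 passed the test at 0.48 (limma adjusted p = 0.0395) and the same 8 counted lower as deposited, while the sum of mt-Nd4l was at 0.04 (limma adjusted p = 0.823).

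The comparison of stimulated with unstimulated myotubes under 5 % O2 gave changes of at most 0.37 among the genes without a copy that passed. mt-Rnr1 fell by 0.37 (SE 0.0376, limma adjusted p = 1.46e-09), whereas mt-Rnr2 was at -0.09 (limma adjusted p = 0.217, interval -0.20 to 0.01). mt-Nd1 fell by 0.35 (limma adjusted p = 2.98e-06), mt-Cytb by 0.28 (limma adjusted p = 0.000116) and mt-Nd2 by 0.24 (limma adjusted p = 0.00179). mt-Nd5 at -0.09 (limma adjusted p = 0.343) and mt-Nd6 at -0.14 (limma adjusted p = 0.222) did not pass. As deposited 3 of the 13 mRNAs fell, mt-Nd1, mt-Nd2 and mt-Cytb, and 0 rose, against 12 % of all genes lower, 9.44 % higher and 21.4 % changed in all. Each of the 3 was lower without overlap, as were 5.44 % of all genes. The median was -0.14 over the mRNAs and -0.00764 over all genes.

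With the copies summed, 7 of 13 fell and 1 rose, against 12 % lower and 9.45 % higher among all genes. The sums of mt-Nd3 and mt-Atp6 each fell by 0.44 (limma adjusted p = 0.000141 and 2.04e-05), that of mt-Co3 by 0.23 (limma adjusted p = 9.85e-05) and that of mt-Co2 by 0.20 (limma adjusted p = 0.00834). mt-Co1 with its copy was at -0.03 (limma adjusted p = 0.697). The sum of mt-Nd4l rose by 0.55 (SE 0.194, limma adjusted p = 0.0473), a call that was lost in 17 of the 24 fits that left out 1 library. mt-Atp8 did not pass at 0.52 (limma adjusted p = 0.161), although all 6 libraries of 5 % STIM lay above those of 5 % CTRL, as in 5.64 % of all genes. Its limma adjusted p was 0.00409 in a fit of these 12 libraries alone. mt-Nd4l (297 bases) and mt-Atp8 (204 bases) are short, and whether the lower slopes on gene length in 5 % STIM bore on them was not tested.

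**Figure D3:**
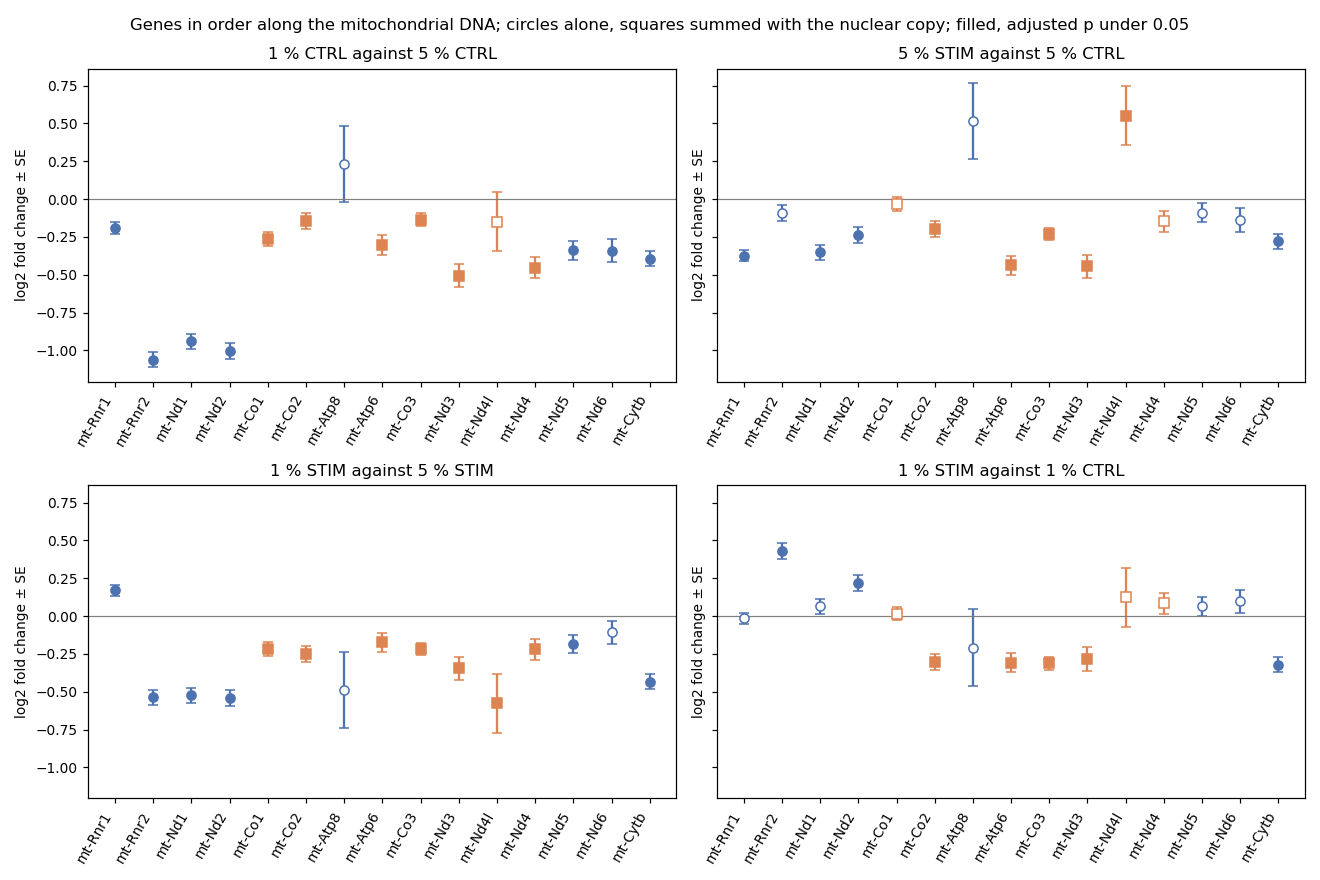
Log2 fold changes with SE from limma for the 15 genes in their order along the mitochondrial DNA, in 4 comparisons. Circles are the 8 genes without an annotated copy on chromosome 1, and squares are 7 genes summed with theirs. Bars are the SE and filled symbols passed the test. In 1 % CTRL against 5 % CTRL, mt-Rnr2, mt-Nd1 and mt-Nd2 lay between -1.06 and -0.94 and the genes downstream of them at -0.51 or above.

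In stimulated myotubes, 1 % O2 again went with lower mitochondrial mRNAs than 5 % O2, but not with lower mt-Rnr1. mt-Nd2 fell by 0.54 (SE 0.0534, limma adjusted p = 2.99e-09), mt-Rnr2 by 0.54 (SE 0.0516, limma adjusted p = 1.32e-09), mt-Nd1 by 0.52 (SE 0.0481, limma adjusted p = 3.41e-10) and mt-Cytb by 0.43 (SE 0.0492, limma adjusted p = 2.15e-08), each without overlap between the groups, as in 18.7 % of all genes lower and 18.7 % higher. mt-Rnr1 rose by 0.17 (SE 0.0376, limma adjusted p = 0.000239). mt-Nd6 was at -0.11 (limma adjusted p = 0.246, interval -0.27 to 0.05). As deposited, 7 of 13 mRNAs fell and 0 rose, where 28.4 % of all genes fell, 29.0 % rose and 57.4 % changed in all, and the medians were -0.49 and -0.000827. With the copies summed 11 of 13 fell, against 28.5 % of all genes. The exceptions were mt-Nd6 and mt-Atp8, the latter at -0.49 (limma adjusted p = 0.104). Without replicate 1 of 1 % CTRL, a library outside this comparison that enters its spread, mt-Atp8 passed (limma adjusted p = 0.0299).

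Scaling bore on the smallest of these changes. mt-Nd4 fell by 0.18 and mt-Nd5 by 0.18 with the deposited size factors, but with libraries rescaled to the same total they were at -0.11 (limma adjusted p = 0.132) and -0.11 (limma adjusted p = 0.113). The median of all genes then moved by 0.0697, and 5 mRNAs passed as deposited and 8 with the copies summed. As deposited, 3182 of the 14541 genes tested then fell and 5466 rose. The sum of mt-Atp6, which fell by 0.17, lost its call without replicate 3 or 6 of 5 % STIM or replicate 4, 5 or 6 of 1 % STIM, with an adjusted p of up to 0.0692.

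Stimulation under 1 % O2 went with changes in both directions. mt-Rnr2 rose by 0.43 (SE 0.0516, limma adjusted p = 4.10e-07), to 1.35 times its level in 1 % CTRL, without overlap between the groups, as in 5.29 % of all genes. mt-Nd2 rose by 0.22 (SE 0.0534, limma adjusted p = 0.0035), and mt-Cytb fell by 0.32 (SE 0.0492, limma adjusted p = 1.44e-05), the latter without overlap, as in 5.91 % of all genes. mt-Rnr1 was at -0.01 (interval -0.09 to 0.06), mt-Nd1 at 0.06 (interval -0.03 to 0.16), mt-Nd5 at 0.06 and mt-Nd6 at 0.10, none of which passed. Thus 1 of 13 mRNAs rose and 1 fell as deposited, where 11.5 % of all genes rose and 10.8 % fell, 22.3 % in all. The median was 0.06 over the mRNAs and -0.00314 over all genes. With the copies summed 1 rose and 5 fell, against 11.5 % and 10.9 %. The 4 added falls were of similar size, at 0.31 for the sums of mt-Co2, mt-Atp6 and mt-Co3 and 0.28 for that of mt-Nd3. The sums of mt-Co1, at 0.02, mt-Nd4, at 0.09, and mt-Nd4l, at 0.12, did not pass, and the last was at -0.07 without replicate 1 of 1 % CTRL (limma adjusted p = 0.793).

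The interaction, the response to stimulation under 1 % O2 minus that under 5 % O2, passed for the 4 genes that come first on the heavy-strand precursor. It was 0.52 for mt-Rnr2 (SE 0.0730, limma adjusted p = 1.83e-05), 0.46 for mt-Nd2 (SE 0.0756, limma adjusted p = 0.000175), 0.42 for mt-Nd1 (SE 0.0680, limma adjusted p = 0.000115) and 0.36 for mt-Rnr1 (SE 0.0531, limma adjusted p = 1.21e-05). All 4 were positive. Of the genes with negative values, mt-Atp8 was at -0.72 (limma adjusted p = 0.215) and the sum of mt-Nd4l at -0.43 (limma adjusted p = 0.357). Without replicate 1 of 1 % CTRL both passed, at -0.97 (limma adjusted p = 0.0185) and -0.62 (limma adjusted p = 0.0486), and 3 mRNAs passed as deposited. With all libraries 2 of 13 mRNAs passed, both as deposited and with the copies summed, where 5.88 % of all genes passed upwards, 5.43 % downwards (5.44 % with the copies summed) and 11.3 % in all. Further along, the interaction was 0.23 for mt-Nd6 (limma adjusted p = 0.183), 0.15 for mt-Nd5 (limma adjusted p = 0.290), 0.03 for mt-Co1 (limma adjusted p = 0.817) and -0.04 for mt-Cytb (limma adjusted p = 0.764). The intervals of mt-Nd6, from 0.01 to 0.46, and of mt-Nd1, from 0.28 to 0.56, overlapped, and the difference between their interactions was not tested.

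Ratios of transcripts within a library do not depend on its size factor, and they were compared between groups by two-sided exact permutation tests with Benjamini-Hochberg adjustment over 16 tests. The smallest p that 6 against 6 libraries allow is 0.00216. The log2 ratio of mt-Rnr1 to mt-Rnr2, which lie side by side with only mt-Tv between them, was -1.21 ± 0.0532 (SD, n = 6) in 5 % CTRL and -0.34 ± 0.0304 in 1 % CTRL. It was -1.49 ± 0.0542 in 5 % STIM and -0.78 ± 0.105 in 1 % STIM. None of the 4 comparisons had overlapping groups (adjusted exact permutation p = 0.00346 in each). The ratio rose by 0.87 with 1 % O2 in unstimulated and by 0.71 in stimulated myotubes, and stimulation lowered it by 0.28 under 5 % O2 and by 0.44 under 1 % O2.

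The log2 ratio of mt-Cytb to mt-Nd1, the far against the near end of the heavy-strand mRNAs, was -0.27 ± 0.0461 in 5 % CTRL and 0.27 ± 0.0401 in 1 % CTRL, a rise of 0.55 (adjusted exact permutation p = 0.00346). Stimulation lowered it by 0.38 under 1 % O2 (adjusted exact permutation p = 0.00346), to -0.11 ± 0.0503. In 5 % STIM it was -0.20 ± 0.0651, at 0.07 above 5 % CTRL (adjusted exact permutation p = 0.0544). The rise of 0.09 from 5 % STIM to 1 % STIM passed (adjusted exact permutation p = 0.0375), with overlapping groups, and was lost on leaving out any 1 of 7 libraries, replicates 2, 3, 5 and 6 of 5 % STIM and 2, 4 and 6 of 1 % STIM.

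The log2 ratio of mt-Nd6 to mt-Cytb compares neighbours across mt-Te, whose sequence is given above. The counting did not use strand, so the count of mt-Nd6 includes any RNA antisense to it. The ratio therefore cannot be read as light strand against heavy strand. It was -1.86 ± 0.0510 in 5 % CTRL and -1.81 ± 0.0859 in 1 % CTRL. With stimulation it was -1.72 ± 0.0365 at 5 % O2 and -1.39 ± 0.150 at 1 % O2. The 6 libraries of 1 % STIM lay above all others, by 0.42 on average against 1 % CTRL and by 0.33 against 5 % STIM (adjusted exact permutation p = 0.00346 in each). In 5 % CTRL, 1 % CTRL and 1 % STIM the library with the highest slope on gene length also had the highest ratio. In 5 % STIM the library with the highest slope, replicate 1, had the lowest ratio, at -1.79. Whether the slope is linked to the ratio was not tested. Stimulation under 5 % O2 raised it by 0.14 (adjusted exact permutation p = 0.0063), with overlap. For 1 % CTRL against 5 % CTRL the difference was 0.05 (adjusted exact permutation p = 0.296), and 0.07 without replicate 5 of 5 % CTRL (adjusted exact permutation p = 0.00577) but 0.0170 without replicate 1 of 1 % CTRL (adjusted exact permutation p = 0.591).

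The log2 ratio of mt-Rnr2 to mt-Nd1, neighbours across mt-Tl1, was -2.22 ± 0.0769 in 5 % CTRL and -2.34 ± 0.0844 in 1 % CTRL. With stimulation it was -1.96 ± 0.0595 at 5 % O2 and -1.97 ± 0.0616 at 1 % O2. It was thus higher in stimulated myotubes, by 0.26 under 5 % O2 and by 0.36 under 1 % O2, without overlap (adjusted exact permutation p = 0.00346 in each). In stimulated myotubes it differed by -0.01 between 1 % and 5 % O2 (adjusted exact permutation p = 0.686). The difference of -0.12 between the unstimulated groups (adjusted exact permutation p = 0.0426) was lost on leaving out any 1 of 8 libraries, replicates 2, 3, 5 and 6 of 5 % CTRL and 3, 4, 5 and 6 of 1 % CTRL.

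**Figure D4:**
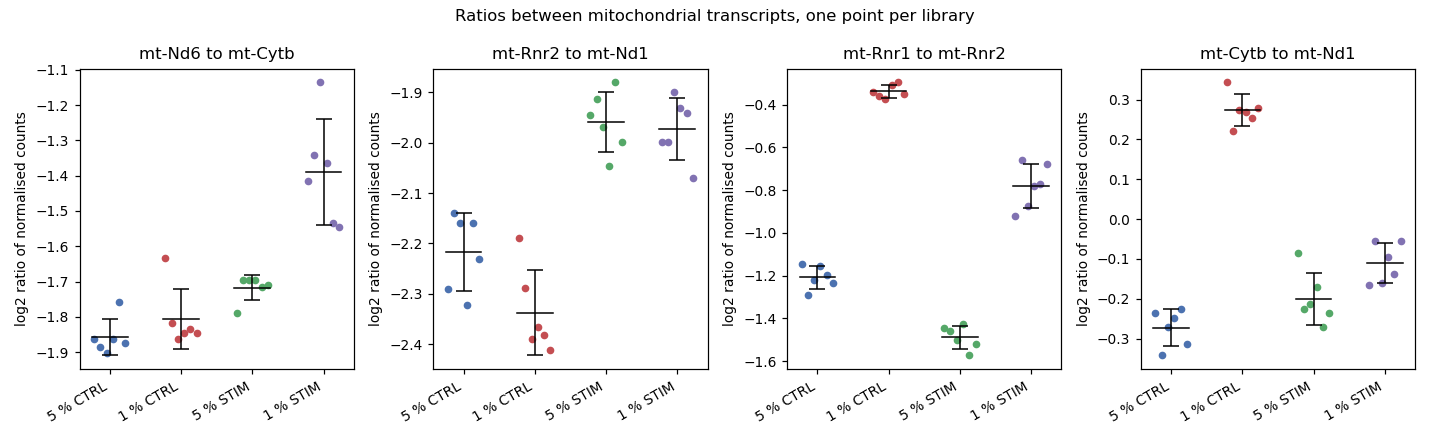
Log2 ratios of normalised counts of 3 pairs of neighbouring mitochondrial transcripts and of mt-Cytb to mt-Nd1, with 1 point per library and the mean and SD of 6 per group. The ratio of mt-Rnr1 to mt-Rnr2 separated all groups that were compared, and the ratio of mt-Nd6 to mt-Cytb was highest in the 6 libraries of 1 % STIM, between -1.55 and -1.14. The counting did not use strand, so mt-Nd6 includes any RNA antisense to it.

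The nuclear genes of mitochondrial gene expression were followed as a list of 50, all of which passed the filter. Under 1 % O2 without stimulation 27 fell and 7 rose, where 30.5 % of all genes fell and 29.4 % rose. In stimulated myotubes at 1 % against 5 % O2, 21 fell and 12 rose, where 28.4 % and 29.0 % of all genes did. After rescaling of the libraries to 1 common total, 23 fell and 11 rose in the first of these comparisons. Of the 14541 genes tested, 3378 then fell and 5669 rose. In the second comparison 16 fell and 16 rose, where 3182 of the genes tested fell and 5466 rose. Stimulation under 5 % O2 went with 14 lower and 3 higher, against 12 % and 9.44 %, and under 1 % O2 with 3 lower and 6 higher, against 10.8 % and 11.5 %. The median log2 fold change of the list was -0.18, -0.11, -0.08 and 0.01 in these comparisons, where the medians of all genes were between -0.00764 and 0.0015.

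The largest changes under 1 % O2 were those of 4 genes. Mterf2, a member of the mitochondrial transcription termination factor family, had normalised counts of 99.4 to 132.6 (median 109.3) in 5 % CTRL and 189.8 to 240.4 (median 210.2) in 1 % CTRL. It rose by 0.91 without and by 0.79 with stimulation under 1 % O2 (limma adjusted p = 1.55e-11 and 3.97e-10). Trmt10c, a subunit of the mitochondrial RNase P that cuts the 5′ ends of tRNAs, had 1208 to 1323 (median 1297) in 5 % CTRL and 677 to 811 (median 743) in 1 % CTRL. It fell by 0.78 and 0.62 (limma adjusted p = 9.03e-17 and 6.50e-14). Fastkd5, which takes part in releasing mRNAs not flanked by tRNAs, fell by 0.66 and 0.58, and Mrm3, a methyltransferase of the large rRNA, by 0.58 and 0.55. For each of these 4 genes, named for the size of their change, the libraries at 1 % O2 did not overlap with those at 5 % O2 under the same stimulation. Of all genes, 19.9 % were lower and 18.2 % higher without overlap in unstimulated myotubes, and 18.7 % and 18.7 % in stimulated ones. Of the 12 RNA processing genes 7 fell and 1 rose under 1 % O2 without stimulation, of the 10 transcription genes 6 fell and 2 rose, of the 10 ribosome assembly genes 6 fell, of the 9 replication genes 4 fell, and of the 9 genes of RNA stability and decay 4 fell and 4 rose, where 30.5 % of all genes fell and 29.4 % rose. After rescaling to 1 common total, 5 transcription genes fell and 2 rose, and 4 ribosome assembly genes fell and 2 rose. Of the RNA processing genes 7 then fell and 2 rose, and of the replication genes 3 fell and 1 rose. Of the genes of RNA stability and decay 4 fell and 4 rose. Of the 14541 genes tested, 3378 then fell and 5669 rose.

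With stimulation the shifts were smaller. Under 5 % O2, Slirp, the partner of Lrpprc in binding mitochondrial mRNAs, rose by 0.48 (limma adjusted p = 0.0247). The call was lost without replicate 1 or replicate 5 of 5 % CTRL (limma adjusted p of up to 0.0636). These libraries had the lowest counts of Slirp and the highest slopes on gene length in their group. Mrm2, a methyltransferase of the large rRNA, fell by 0.31, Fastkd5 by 0.27 and Polrmt, the mitochondrial RNA polymerase, by 0.24. Under 1 % O2, Twnk, the helicase of the mitochondrial replisome, rose by 0.26 (limma adjusted p = 2.17e-07) and Ptcd1, a pentatricopeptide repeat protein, by 0.22. Fastkd5 fell by 0.19, and Mgme1, a nuclease of mitochondrial DNA replication, rose by 0.16 (limma adjusted p = 0.0218), a call lost without replicate 2 or 5 of 1 % CTRL or replicate 2 of 1 % STIM. The interaction passed for 6 of the 50, all of them positive. Of all genes, 5.88 % passed upwards, 5.43 % downwards and 11.3 % in all. The interaction was 0.31 for Fastkd1, an RNA-binding protein of the family of Fastkd5, and 0.21 for the helicase Supv3l1, which acts in RNA decay. It was 0.19 for Elac2, which cuts the 3′ ends of tRNAs, and 0.17 for Lrpprc, which stabilises mitochondrial mRNAs.

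**Figure D5:**
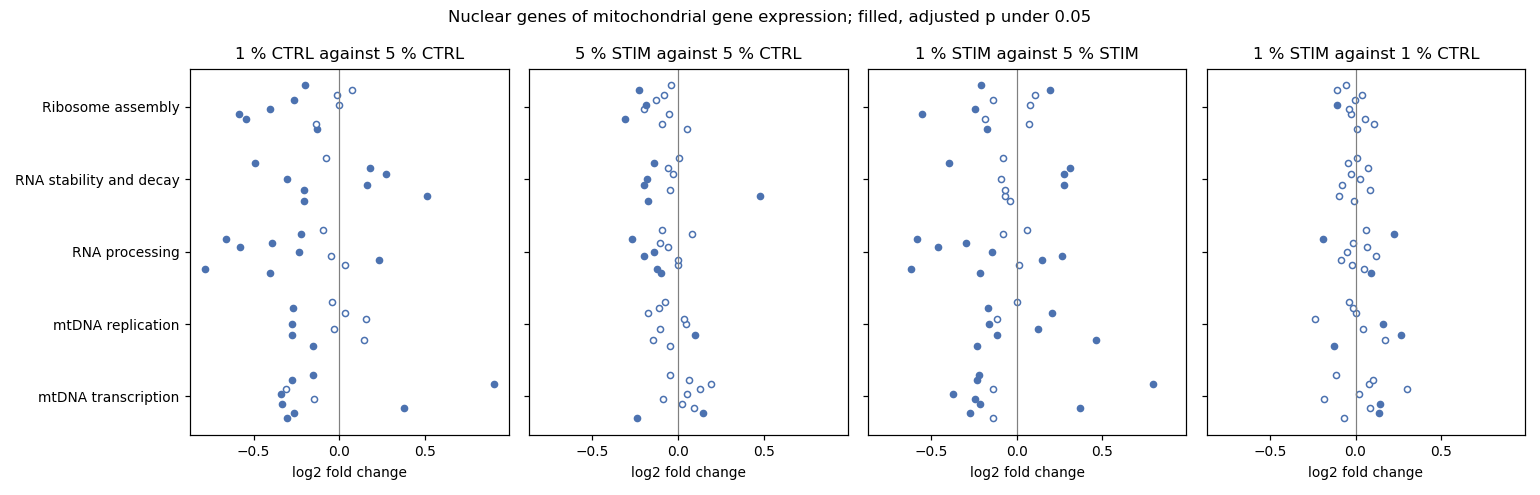
Log2 fold changes from limma of 50 nuclear genes of mitochondrial gene expression, by role, in 4 comparisons on a common axis. Each point is 1 gene, and filled points passed the test. Of the 50 genes, 27 fell and 7 rose under 1 % O2 without stimulation, and 3 fell and 6 rose with stimulation under 1 % O2.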

How the data were processed

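Bulk RNA of 24 cultures was measured. The authors made poly(A)-selected stranded libraries, read them from 1 end, mapped them with STAR 2.5.4b on GRCm38 and counted per gene with RSEM 1.3.0 at default parameters, which do not use strand, per the labels and methods. The deposited signal is the count per gene divided by the DESeq2 size factor of the library (0.955 to 0.992 at 5 % O2 and 1.02 to 1.05 at 1 % O2), and 100 % of values were whole reads within 0.001. A second deposited table holds the authors' log2 fold changes, p-values and scores of calls, and was not used.

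Genes were matched to GENCODE M21 (55141 of 55487 genes, 99.4 %), which gave the coordinates and the transcript sequences. Words of 75 bases were searched in its transcripts. Genes that shared at least 100 words were aligned with edlib 1.3.9.post1. The copy of a mitochondrial gene was the 1 that shared the most words, and all 7 copies lie on chromosome 1. Gm13340 (220 words of mt-Co1) and Gm13341 (138 words of mt-Co2) also reached 100 but were left out of the sums. For 14541 genes with a normalised count of at least 10 in at least 6 libraries, log2(normalised count + 1) entered 1 limma 3.58.1 fit of the 4 groups (eBayes with trend and robust), and a gene was called at an adjusted p (Benjamini-Hochberg, all genes tested) under 0.05. SE, 95% intervals and adjusted p come from this fit unless a permutation test (scipy 1.17.1) is named. Fold changes are on the log2(normalised count + 1) scale. p-values measure the spread between cultures. The text names every member that passed the filter, and of the nuclear list up to 4 genes per comparison, by the largest change among those called whose higher group averaged 100 or more. The members and lists were chosen with earlier results of these data known. The fits were tested on simulated data. Alternatives were a threshold of 0.01, a replicate block, all genes with a read, a pseudocount of 10, libraries rescaled to the same total or to that of genes that are not mitochondrial, the compared groups alone, edgeR 4.0.16 and DESeq2 1.42.0 on whole reads, and leaving out each library. Sums with the copies, alone or with rescaled libraries, were added after the data were seen.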

Additional observations from a re-analysis of the deposited data

Results flagged for a closer look

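In 108 groups of 6 values, those of the 15 genes, the 7 sums with a copy, the 4 ratios and the share of reads, 7 had a library farther from the others than Dixon's test allows, where chance gives about 5 %. Replicate 6 of 5 % CTRL had 73689 normalised counts of mt-Nd1 against 78500 to 80405 in the others. Replicate 5 of 1 % STIM had 190.6 of mt-Nd3 against 0 to 64.7, and replicate 1 of 1 % CTRL had 1822 of mt-Nd4l against 3295 to 3705. Replicate 5 of 5 % CTRL had 59940 of mt-Co3 summed with its copy against 53213 to 55572. The log2 ratio of mt-Nd6 to mt-Cytb stood apart in 3 groups, at -1.76 in replicate 5 of 5 % CTRL (others -1.90 to -1.86), at -1.63 in replicate 1 of 1 % CTRL (others -1.86 to -1.82) and at -1.79 in replicate 1 of 5 % STIM (others -1.72 to -1.69).

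The response to stimulation differed between 1 % and 5 % O2, by the interaction in limma, for mt-Rnr1 (0.36, adjusted p = 1.21e-05), mt-Rnr2 (0.52, adjusted p = 1.83e-05), mt-Nd1 (0.42, adjusted p = 0.000115) and mt-Nd2 (0.46, adjusted p = 0.000175). Among the nuclear genes named, it did so for Twnk (0.16, adjusted p = 0.0218), Elac2 (0.19, adjusted p = 0.00652), Fastkd1 (0.31, adjusted p = 0.0151), Lrpprc (0.17, adjusted p = 0.00677) and Supv3l1 (0.21, adjusted p = 0.016).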

How the results depend on the processing

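Over single genes, 3251 of 3306 alternative values kept their direction and their side of the threshold, and 7 reversed, all by adding the copy. These were mt-Co2 (-0.14) and mt-Nd3 (-0.51, and -0.43 with rescaled libraries) in 1 % CTRL against 5 % CTRL, mt-Co2 in 5 % STIM against 5 % CTRL (-0.20 and -0.17 rescaled), and mt-Atp6 in 1 % STIM against 1 % CTRL (-0.31 and -0.29 rescaled). For 5 % STIM against 5 % CTRL, 5 mRNAs were called in a fit of those groups alone and 8 with the copies summed, with or without rescaling. With the copies summed 11 were called in 1 % STIM against 5 % STIM, and 6 in 1 % STIM against 1 % CTRL, also when rescaled. At a threshold of 0.01, 1944 genes were called in 5 % STIM against 5 % CTRL and 830 in the interaction, and 9, 5 and 2 nuclear genes of the list in 5 % STIM against 5 % CTRL, 1 % STIM against 1 % CTRL and the interaction. Rescaling to the same total raised the share of calls that were higher from 49.0 % to 62.7 %, 44.0 % to 62.1 %, 50.4 % to 63.2 % and 51.4 % to 62.4 % in the 4 comparisons. Adding the copies raised the mean share of reads on the mRNAs to 3.30 % and 2.73 % in the unstimulated groups at 5 % and 1 % O2, and to 3.0 % and 2.63 % in the stimulated ones.

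Replicate numbers are shared between groups. Deviations from the group means correlated between -0.148 and 0.155 in same-numbered libraries, so the values showed no clear pairing by number. This cannot tell whether the cultures were handled in numbered sets. The replicate block changed no count of mRNAs by more than 1.5 times. In ratios, an exact permutation of signs over the 6 pairs, whose smallest p is 0.0312, lost mt-Rnr2 to mt-Nd1 in 1 % CTRL against 5 % CTRL (-0.12, adjusted p = 0.115) and mt-Cytb to mt-Nd1 in 1 % STIM against 5 % STIM (0.0890, adjusted p = 0.143). Leaving out 1 library moved these between -0.150 and -0.105 and between 0.0750 and 0.112. It moved mt-Cytb to mt-Nd1 in 5 % STIM against 5 % CTRL between 0.0491 and 0.0863, which passed without replicate 1 or 5 of 5 % CTRL or replicate 5 of 5 % STIM (adjusted exact permutation p = 0.0445, 0.0445 and 0.0173), and mt-Nd6 to mt-Cytb in 1 % CTRL against 5 % CTRL between 0.0170 and 0.0714. The length of the reads limits the tRNAs, and the division of reads with the copies limits the 7 genes that have an annotated one.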
